A study of Mus musculus with 82 samples.

Results

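The 9 genes described here, *Gnaq*, *Gna11*, *Plcb1*, *Plcb3*, *Plcb4*, *Itpr1*, *Rgs2*, *Rgs4* and *Chrm3*, encode parts of the Gq signaling pathway that the designer receptor hM3D(Gq) feeds into. They were chosen by symbol, and all 9 were present among the 43629 gene identifiers of both count tables, 1 from sorted retinal ganglion cells (RGCs) and 1 from the superior colliculus. All mice were Vglut2-ires-Cre × Thy1-STOP-YFP animals, 10 weeks old by the sample labels. The timeline of the study gives a higher age, since the vector was injected at 5 weeks of age and the 5 weeks of OHT began later. All mice received clozapine N-oxide (CNO), the ligand of the designer receptor, with the last dose a few hours or less before the tissue was taken. In each tissue the libraries formed 4 groups: “OHT + DREADD” (10 libraries), “SHAM + DREADD” (10), “OHT” (11) and “SHAM” (10). OHT is ocular hypertension of 5 weeks, induced by microbead occlusion of the anterior chamber, and SHAM eyes had a vehicle injection. The DREADD groups carried hM3D(Gq) in the superior colliculus, delivered by a viral vector under the CaMKIIα promoter, so expression was limited to the cells that this vector reaches and this promoter serves, and were stimulated for 5 weeks. The “OHT” and “SHAM” groups carried a null vector. An RGC library came from the viable YFP-positive cells sorted from 1 retina, and a collicular library from the lysate of 1 superior colliculus.

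Gq-coupled receptors, among them the muscarinic M3 receptor, act through the α subunits Gαq and Gα11, which switch on phospholipase Cβ. Phospholipase Cβ splits a membrane lipid into diacylglycerol, which activates protein kinase C, and inositol trisphosphate, which opens the inositol trisphosphate receptor and lets calcium out of the endoplasmic reticulum. RGS proteins end the signal by speeding up the GTPase activity of the α subunit, and in neurons the transcripts of *Rgs2* and *Rgs4* are known to respond to activity.

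The libraries held 3534776 to 6889040 counted reads in RGCs (median 5107338) and 1766207 to 4239835 in the superior colliculus (median 2926193). Of the 10 RGC markers, 8 were detected in all 41 RGC libraries, *Ebf3* in 37 and *Pou4f3* in 29. Their summed level averaged 393 to 594 CPM (reads of a gene scaled to a common library size) per group, beside 33607 to 45249 CPM for 12 rod photoreceptor markers and 2627 to 3383 CPM for 7 amacrine and horizontal cell markers, so the sorted samples also held RNA of other retinal cells. *Fos*, an activity-regulated gene, averaged 59.6 ± 26.001 CPM in “OHT + DREADD” and 50.9 ± 14.1 CPM in “SHAM + DREADD” colliculi, beside 15.9 ± 8.41 CPM in “OHT” and 16.6 ± 6.27 CPM in “SHAM” colliculi (SD, n = 10, 10, 11 and 10). Libraries in which *Xist* exceeded the Y-linked genes numbered 5 of 10 in “OHT + DREADD”, 10 of 10 in “SHAM + DREADD”, 2 of 11 in “OHT” and 2 of 10 in “SHAM”, in both tissues. A comparison of “SHAM + DREADD” with “SHAM” is therefore also in large part a comparison of female with male mice. “OHT + DREADD” vs. “SHAM + DREADD” and “OHT + DREADD” vs. “OHT” were uneven in sex too. One “SHAM” colliculus (replicate 1) carried a treatment label of another group while its title and its column heading named it “SHAM”, and each member's comparisons that use it were also computed without it.

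Expression of the 9 Gq pathway genes differed little between stimulated and unstimulated colliculi, and *Rgs2* alone passed the test, in the SHAM mice. A gene is called here at an adjusted p of at most 0.1, the false discovery threshold of the study, without its fold threshold. The fit used here called far fewer genes than the study reported, although the study added the fold threshold. It called 15 genes in “OHT + DREADD” vs. “OHT” colliculi, and in RGCs 15 in “OHT + DREADD” vs. “OHT” and 12 in “OHT” vs. “SHAM”. The counts of called members below are therefore those of this fit, and the reason for the difference was not tested. In “OHT + DREADD” vs. “OHT” colliculi, 0 of the 9 genes were called by edgeR's quasi-likelihood test, where 0.0956% of the 15694 genes tested were. In “SHAM + DREADD” vs. “SHAM” colliculi, 1 of the 9 was called, *Rgs2*, against 0.11% of 15433 genes, and it was higher with stimulation, as were 0.0713% of all genes at that threshold. Averaged over OHT and SHAM, 0 of the 9 were called, with 0.161% of 16169 genes called. At an unadjusted p under 0.05 the counts were 0 of 9 in “OHT + DREADD” vs. “OHT” (7.39% of all genes), 3 of 9 in “SHAM + DREADD” vs. “SHAM” (9.54%) and 1 of 9 in the averaged effect (8.16%). DESeq2 and limma-voom gave the same counts of called members, 0, 1 and 0. The median log2 fold change of the 9 genes was -0.08 in both single comparisons, beside 0.02 for all genes in “OHT + DREADD” vs. “OHT” and 0.0045 in “SHAM + DREADD” vs. “SHAM”. Leaving aside *Plcb3*, which had few reads, the 95% intervals of the other 8 genes lay between -0.37 and 0.31 in “OHT + DREADD” vs. “OHT” and between -0.40 and 0.44 in “SHAM + DREADD” vs. “SHAM”, on the log2 scale. The intervals are for the lysate as a whole, which pools transduced cells with all others. In such bulk samples, fewer cells of a type and less RNA per cell cannot be told apart.

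**Figure D1:**
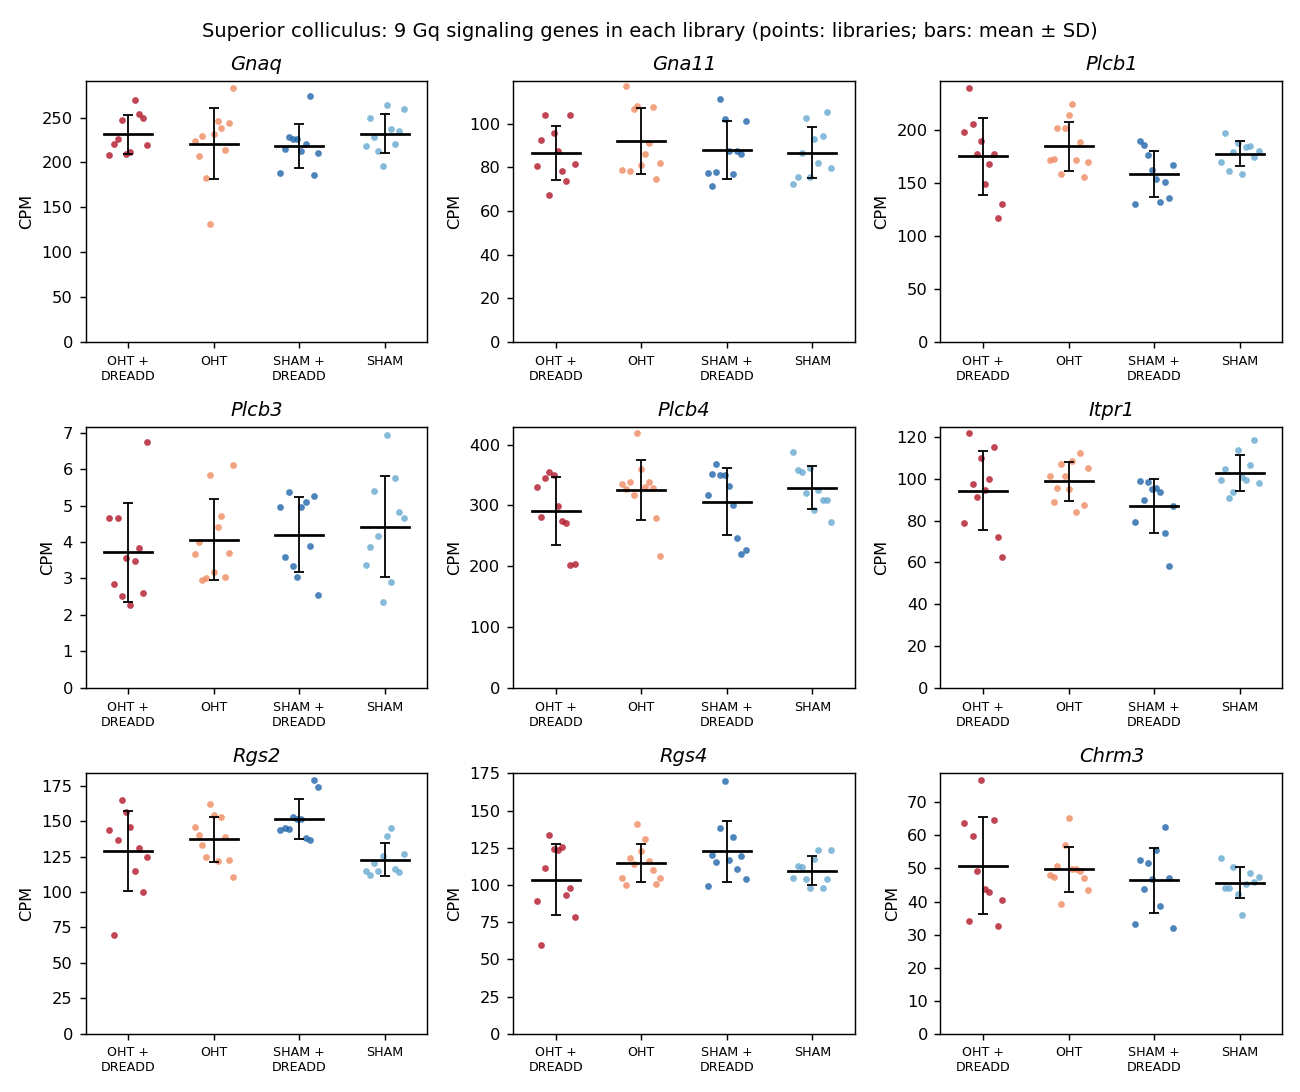
Expression of the 9 Gq signaling genes in each superior colliculus library, in CPM, for “OHT + DREADD” (10), “OHT” (11), “SHAM + DREADD” (10) and “SHAM” (10). Points are libraries and bars are mean ± SD. The groups overlapped for every gene, and *Rgs2* in “SHAM + DREADD” colliculi, with a lowest library of 137 CPM, lay mostly above “SHAM”, with a highest library of 145 CPM.

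*Gnaq* encodes Gαq, the subunit after which the pathway is named (mm10 chr19:16132831-16387463, plus strand). In the superior colliculus it ranged from 208 to 269 CPM (median 223) in “OHT + DREADD”, 131 to 283 CPM (median 230) in “OHT”, 186 to 274 CPM (median 218) in “SHAM + DREADD” and 196 to 264 CPM (median 232) in “SHAM”. The 4 ranges lay over one another. The log2 fold change was 0.08 (SE 0.10) in “OHT + DREADD” vs. “OHT” and -0.09 (SE 0.07) in “SHAM + DREADD” vs. “SHAM” (edgeR adjusted p = 0.87 and 0.71). *Gna11*, for the closely related Gα11 (chr10:81528724-81545190, minus strand), averaged 86.5 ± 12.3 CPM in “OHT + DREADD” and 92.0 ± 15.1 CPM in “OHT”, and 87.9 ± 13.0 CPM in “SHAM + DREADD” and 86.7 ± 11.7 CPM in “SHAM” (SD). Its log2 fold changes were -0.08 (SE 0.10) and 0.02 (SE 0.09), with adjusted p = 0.87 and 0.96 in edgeR.

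Of the phospholipase Cβ genes, *Plcb4* and *Plcb1* were abundant in the colliculus and *Plcb3* was near the limit of detection. *Plcb4*, an isoform known for its role in the thalamus, cerebellum and retina (chr2:135659011-136014593, plus strand), ranged from 203 to 355 CPM (median 290) in “OHT + DREADD”, 216 to 418 CPM (median 330) in “OHT”, 221 to 368 CPM (median 324) in “SHAM + DREADD” and 273 to 389 CPM (median 323) in “SHAM”. The “OHT + DREADD”, “OHT” and “SHAM + DREADD” groups each had libraries below the lowest “SHAM” library, and all 4 groups overlapped. On the log2 scale the difference was -0.15 (SE 0.11) in “OHT + DREADD” vs. “OHT” and -0.10 (SE 0.09) in “SHAM + DREADD” vs. “SHAM”, with adjusted p = 0.78 and 0.74 in edgeR. *Plcb1*, the main isoform of the forebrain cortex and hippocampus (chr2:134786067-135475258, plus strand), averaged 158 ± 21.6 CPM in “SHAM + DREADD” and 178 ± 11.96 CPM in “SHAM” colliculi (SD, n = 10 each). Its log2 fold change of -0.17 (SE 0.07) had an unadjusted p of 0.028 in edgeR and did not pass the adjustment over all genes (adjusted p = 0.46). In “OHT + DREADD” vs. “OHT” the log2 fold change of *Plcb1* was -0.06 (SE 0.11). *Plcb3* (chr19:6952325-6976470, minus strand), which overlaps *Ppp1r14b* on the other strand, had 5 to 19 reads per collicular library, and its intervals of -0.59 to 0.32 and -0.52 to 0.35 were the widest of the 9 genes in the 2 stimulation comparisons of the colliculus.

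*Itpr1* encodes the main inositol trisphosphate receptor of neurons (chr6:108213096-108551109, plus strand). It ranged from 58.4 to 98.8 CPM (median 91.7) in “SHAM + DREADD” and from 90.8 to 119 CPM (median 100) in “SHAM” colliculi. All 10 “SHAM + DREADD” libraries lay below the median of “SHAM”, while 5 of them lay within its range. Its log2 fold change was -0.23 (SE 0.08, 95% interval -0.40 to -0.07), rank 268 of the 15433 genes, and it did not pass the adjustment (edgeR p = 0.0063, adjusted p = 0.36). In “OHT + DREADD” and “OHT” colliculi *Itpr1* averaged 94.3 ± 18.9 CPM and 98.8 ± 9.32 CPM (SD, n = 10 and 11), a log2 difference of -0.05 (SE 0.10). The summed level of 8 neuronal markers, of which 7 had negative log2 fold changes and 0 were called, was also lower in “SHAM + DREADD” colliculi, with 3438 ± 332 CPM and a range of 2800 to 3719 CPM, beside 3892 ± 215 CPM and a range of 3582 to 4331 CPM in “SHAM” colliculi (SD, n = 10 each). The part of neuronal RNA content in the *Itpr1* values was not tested.

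*Rgs2*, an RGS protein with a preference for Gαq, was the only member called (ENSMUSG00000026360, chr1:143999338-144004161, minus strand). In “SHAM + DREADD” colliculi the 10 libraries had 144, 145, 144, 153, 151, 152, 138, 137, 179 and 174 CPM, and in “SHAM” colliculi 115, 112, 121, 115, 125, 139, 145, 116, 114 and 127 CPM. All 10 “SHAM + DREADD” libraries exceeded the median of “SHAM”, 6 exceeded its highest library, and 2 “SHAM” libraries reached into the “SHAM + DREADD” range. The means were 151.7 ± 14.2 CPM in “SHAM + DREADD” and 122.9 ± 11.4 CPM in “SHAM” (SD), a 1.23-fold difference with a 95% interval of 1.12 to 1.36. On the log2 scale this was 0.30 (SE 0.07), rank 17 of 15433 genes, with an edgeR adjusted p of 0.0906. It was below the fold threshold of 0.5 that the study set for collicular genes.

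Under OHT, *Rgs2* was not called with stimulation. “OHT + DREADD” colliculi had 69.4 to 165 CPM (median 134) and “OHT” colliculi 111 to 162 CPM (median 139). The lowest “OHT + DREADD” library, replicate 2, had 69.4 CPM, with 100.2 CPM in the next, and the 2 groups overlapped over nearly the whole range. Between them the log2 fold change was -0.08 (SE 0.11, 95% interval -0.31 to 0.15), with an edgeR adjusted p of 0.89. The difference between the 2 stimulation effects, tested as an interaction over the 4 groups, was -0.39 (SE 0.13) and did not pass the adjustment over all genes (p = 0.0045, adjusted p = 0.42), so the effects are not shown to differ. Averaged over both conditions the effect of stimulation on *Rgs2* was 0.11 (SE 0.07, adjusted p = 0.68). Without stimulation, *Rgs2* was 0.16 higher on the log2 scale in “OHT” than in “SHAM” colliculi (SE 0.07, p = 0.041, adjusted p = 0.96), with 10 of 11 “OHT” libraries above the median of “SHAM”.

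Sex was unevenly spread over the “SHAM + DREADD” and “SHAM” groups. With sex as a covariate the *Rgs2* difference between “SHAM + DREADD” and “SHAM” colliculi was 0.20 (SE 0.12) with an edgeR adjusted p of 0.65, and the call was lost. In the 2 “SHAM” colliculi with *Xist* above the Y-linked genes, *Rgs2* had 116 and 145 CPM, and in the 8 others it averaged 120.9 ± 9.19 CPM (SD). All 10 “SHAM + DREADD” colliculi were of the first kind. In “OHT + DREADD”, *Rgs2* averaged 142.6 ± 20.1 CPM in the 5 colliculi with *Xist* above the Y-linked genes and 114.8 ± 30.3 CPM in the other 5 (SD). Apart from those 2 “SHAM” libraries, stimulation and sex cannot be told apart in the SHAM mice.

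**Figure D2:**
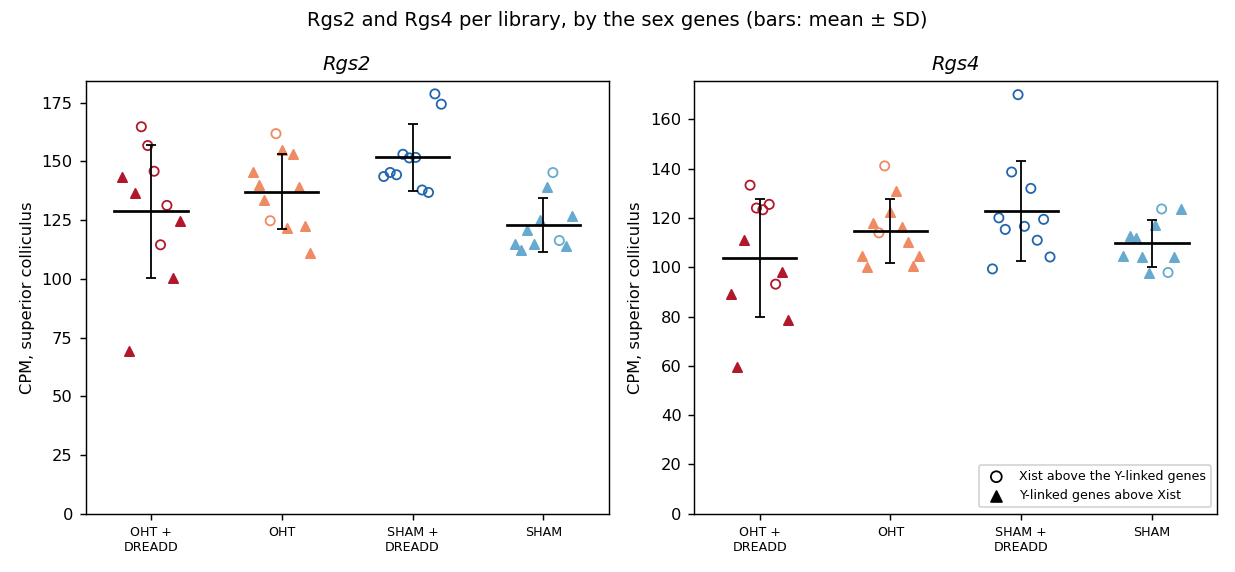
Expression of *Rgs2* and *Rgs4* in each superior colliculus library, in CPM, with libraries drawn as open circles where *Xist* exceeded the Y-linked genes and as filled triangles where the Y-linked genes exceeded *Xist*. Bars are mean ± SD. All 10 “SHAM + DREADD” libraries are open circles, while 8 of 10 “SHAM” libraries are triangles.

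The *Rgs2* call was close to the threshold. Leaving out 1 library at a time, the log2 fold change stayed between 0.27 and 0.33, yet the edgeR adjusted p ranged from 0.028 to 0.22 and the call was lost for 14 of the 20 libraries, namely “SHAM + DREADD” replicates 2, 3, 4, 5, 6, 9 and 10 and “SHAM” replicates 1, 2, 3, 4, 5, 8 and 9. Without “SHAM” replicate 1, the library with the conflicting label, it was 0.29 with an adjusted p of 0.17. The microglial markers were also higher in “SHAM + DREADD” than in “SHAM” colliculi, with 7 of 8 positive log2 fold changes and 0 called. At an unadjusted p under 0.05 in edgeR there were 6 of 8, beside 9.54% of all genes. Their sum, with all 8 detected in all 41 collicular libraries, was 389 to 659 CPM in “SHAM + DREADD” and 323 to 527 CPM in “SHAM” colliculi, with means of 481 ± 91.4 and 407 ± 62.3 CPM (SD). Under OHT, where *Rgs2* was not higher with stimulation, 4 of the 8 markers had positive log2 fold changes. The sum there averaged 437 ± 140 CPM in “OHT + DREADD” and 405 ± 115 CPM in “OHT” colliculi (SD). After removal of group means, *Cx3cr1*, 1 of these 8 markers, was among the 3 genes whose level followed *Rgs2* most closely over the 41 colliculi, with Pearson r = 0.78, after *Ccdc190* with r = 0.80 and ahead of *Zfp260* with r = 0.77, of 11027 genes compared. The part of microglial RNA in the *Rgs2* difference was not tested.

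*Rgs4*, a second RGS protein that acts on Gαq and Gαi (chr1:169741477-169747642, minus strand), did not pass the test in any comparison. It ranged from 99.3 to 170 CPM (median 118) in “SHAM + DREADD” and from 97.9 to 124 CPM (median 108) in “SHAM” colliculi. Its lowest values were found in “OHT + DREADD”, with 59.4 to 133 CPM (median 105), beside 100.002 to 141 CPM (median 114) in “OHT”. These values gave a log2 fold change of 0.16 (SE 0.08, adjusted p = 0.53) in “SHAM + DREADD” vs. “SHAM” and -0.13 (SE 0.11, adjusted p = 0.81) in “OHT + DREADD” vs. “OHT” by edgeR. The interaction was -0.30 (SE 0.14, p = 0.035, adjusted p = 0.60). The lowest *Rgs4* library was the same “OHT + DREADD” replicate 2 that had the lowest *Rgs2* level. In the 5 “OHT + DREADD” colliculi with *Xist* above the Y-linked genes, *Rgs4* averaged 119.9 ± 15.5 CPM (SD). The other 5, replicate 2 among them, averaged 87.3 ± 19.7 CPM. With sex as covariate, the averaged effect of stimulation on *Rgs4* was -0.14 (SE 0.08, edgeR adjusted p = 0.47), beside 0.0090 (SE 0.07) without it. Over the 41 colliculi, with group means removed, *Rgs2* and *Rgs4* had a Pearson r of 0.57, given as a description of libraries that share depth and dissection.

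The bases upstream of both RGS genes are shown because these transcripts are known to respond to neuronal activity and because, of the 8 members with a promoter entry in RefSeq (GRCm38.p6), only these 2 held the cyclic AMP response element half-site TGACG or its reverse complement CGTCA. The half-sites are in capitals, on the gene's strand, 5′ to 3′, over the 250 bases before the RefSeq start, chr1:144004150-144004399 for *Rgs2* and chr1:169747643-169747892 for *Rgs4*, both minus strand. The RefSeq start of *Rgs2* lies within the GENCODE gene whose coordinates are given above, so the region shown runs a few bases into it.
Rgs2: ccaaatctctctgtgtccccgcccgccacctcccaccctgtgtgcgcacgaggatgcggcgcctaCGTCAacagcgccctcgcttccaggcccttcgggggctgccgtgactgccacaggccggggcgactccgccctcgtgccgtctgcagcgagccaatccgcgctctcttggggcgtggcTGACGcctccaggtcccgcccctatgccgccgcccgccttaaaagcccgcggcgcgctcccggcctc
Rgs4: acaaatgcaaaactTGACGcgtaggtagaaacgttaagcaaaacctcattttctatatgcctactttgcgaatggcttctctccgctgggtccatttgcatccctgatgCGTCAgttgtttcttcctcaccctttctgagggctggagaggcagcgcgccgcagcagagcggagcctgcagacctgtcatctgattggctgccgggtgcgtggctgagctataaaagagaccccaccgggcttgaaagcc
In *Rgs2* the half-sites began 185 and 67 bases before the RefSeq start, and in *Rgs4* 236 and 141 bases before it. On either strand, 17.8% of the 32851 upstream regions of the table held the half-site at least 1 time and 3.9% at least 2 times. The full palindrome TGACGTCA, which contains the half-site on both strands, was found in none of the members' regions and in 1.55% of all regions. The AP-1 motif TGAGTCA, searched on both strands, was found in *Plcb3* only among the members, and in 4.46% of all regions. A match is a match of letters, and binding was not measured.

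*Chrm3*, the mouse gene of the muscarinic M3 receptor (chr13:9875486-10360847, minus strand), is the endogenous counterpart of hM3D(Gq), which was built from the human receptor. Collicular *Chrm3* ranged from 32.6 to 76.8 CPM (median 46.4) in “OHT + DREADD”, 39.3 to 65.4 CPM (median 49.2) in “OHT”, 31.9 to 62.6 CPM (median 46.9) in “SHAM + DREADD” and 35.8 to 53.2 CPM (median 45.6) in “SHAM”. The stimulated groups spread more widely on both sides of the unstimulated ones. The log2 fold change was 0.05 (SE 0.13) in “OHT + DREADD” vs. “OHT” and 0.02 (SE 0.10) in “SHAM + DREADD” vs. “SHAM”, with adjusted p = 0.95 and 0.96 in edgeR. Reads of the transgene itself were not analysed here.

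**Figure D3:**
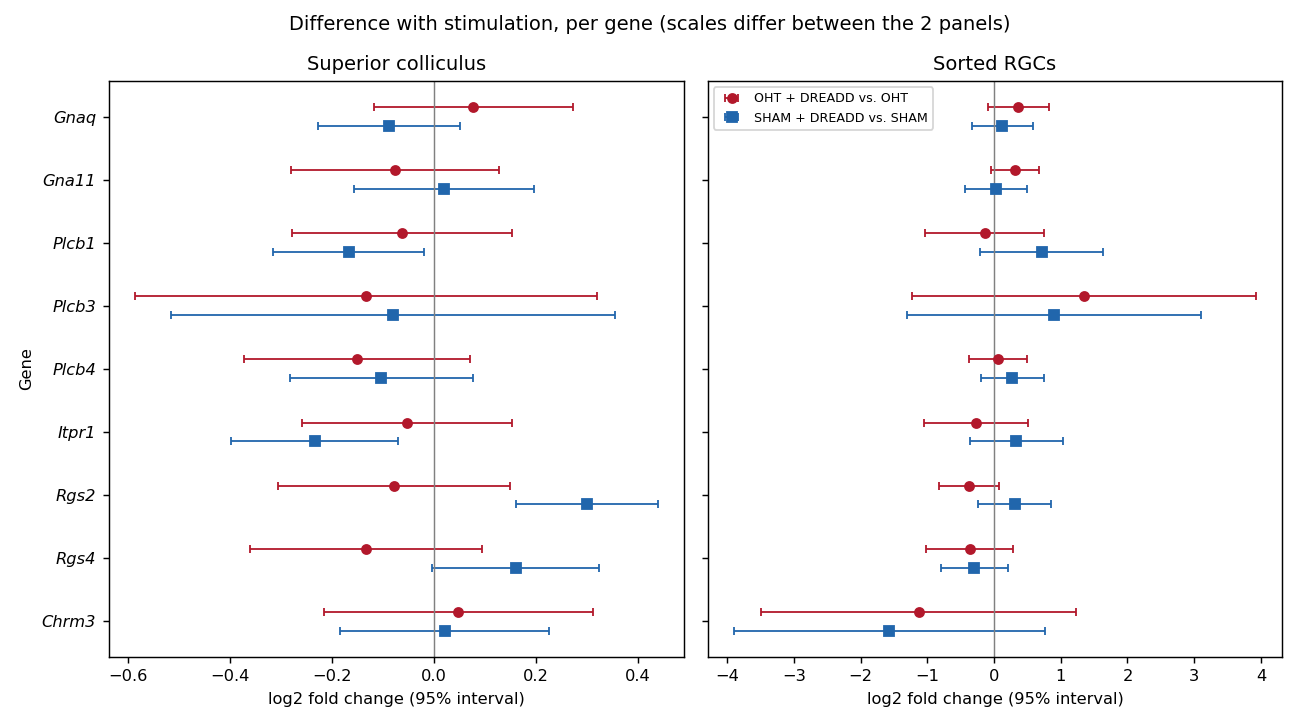
Log2 fold change of each of the 9 genes with stimulation in the superior colliculus and in sorted RGCs, for “OHT + DREADD” vs. “OHT” (circles) and “SHAM + DREADD” vs. “SHAM” (squares). Bars are 95% intervals from edgeR, and the horizontal scales differ between the 2 panels. The interval of *Rgs2* in “SHAM + DREADD” vs. “SHAM” colliculi, 0.16 to 0.44, lies above 0, those of *Plcb1* and *Itpr1* in the same comparison lie below 0, and all others include 0.

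The OHT comparisons gave no called member in the colliculus. In “OHT” vs. “SHAM” 0 of 9 were called (0.0193% of 15578 genes), with 1 of 9 at an unadjusted p under 0.05 (4.95% of all genes), and in “OHT + DREADD” vs. “SHAM + DREADD” 0 of 9 (0.0192% of 15592 genes), with 1 of 9 at an unadjusted p under 0.05 (7.13%). That gene was *Rgs2* in both, with log2 fold changes of 0.16 and -0.23 (SE 0.07 and 0.11, adjusted p = 0.96 and 0.70 in edgeR). In the interaction 0 of 9 were called (0.0433% of 16169 genes) and 2 of 9, *Rgs2* and *Rgs4*, had an unadjusted p under 0.05 (7.94% of all genes). DESeq2 and limma-voom called 0 members in these 3 comparisons too.

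Levels of the 9 genes can be set side by side in the colliculus. In CPM of the 3′ tag libraries, which yield about 1 read per transcript whatever its length, *Plcb4* was highest (313.5 ± 50.4 CPM, SD, n = 41), followed by *Gnaq* (225.8 ± 27.6), *Plcb1* (174.3 ± 25.9), *Rgs2* (135.1 ± 20.9), *Rgs4* (112.7 ± 18.3), *Itpr1* (95.8 ± 13.8), *Gna11* (88.4 ± 12.8), *Chrm3* (48.2 ± 9.57) and *Plcb3* (4.10 ± 1.21). *Gna11* exceeded *Chrm3*, and *Chrm3* exceeded *Plcb3*, in all 41 libraries. Of the other neighbors in this order, each gene exceeded the next in 28 to 39 of 41 libraries, and the ranges of each such pair overlapped. *Plcb4* followed *Akap9* (r = 0.91), *Ptprz1* (r = 0.90) and *Myo9a* (r = 0.88) across the colliculi, and *Gnaq* followed *Dpysl2* (r = 0.84), *Epdr1* (r = 0.80) and *Arpc1a* (r = 0.80), with group means removed.

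Within the stimulated colliculi, *Plcb4* varied with *Fos*. *Fos* was taken as a readout of stimulation, and the relation was computed on log2(CPM + 0.5) with group means removed, apart for stimulated and unstimulated libraries. Over the 20 stimulated colliculi Pearson's r was 0.75 and Spearman's rho 0.74 (permutation p = 2.0e-04 and 1.9e-04, adjusted over 18 relations 0.0036 and 0.0034), and r was 0.60 without the 2 libraries farthest from the median *Fos* level. Over the 21 unstimulated colliculi r was -0.53 and rho -0.34 (adjusted permutation p = 0.070 and 0.45), and r was -0.59 without the 2 farthest libraries. Among the stimulated colliculi *Plcb1*, *Rgs4*, *Chrm3* and *Itpr1* had r of 0.57, 0.53, 0.52 and 0.49, none of which passed an adjusted p of 0.05 (permutation, adjusted p = 0.070, 0.070, 0.070 and 0.090), and *Rgs2* had r = 0.29 (adjusted p = 0.33). In the 2 stimulated libraries with the lowest *Fos*, “OHT + DREADD” replicates 9 and 10 with 26.8 and 28.2 CPM, *Plcb4* had 202.6 and 203.0 CPM, its lowest values in the colliculus. “SHAM + DREADD” replicates 9 and 10 had the next lowest *Fos* of the stimulated colliculi, 29.9 and 37.0 CPM. Their *Plcb4* was 220.9 and 226.6 CPM. Replicates 9 and 10 are the last numbers of both stimulated groups. In the last replicates of “SHAM” and “OHT”, 10 and 11, *Fos* was the highest of its group, 31.6 and 37.9 CPM. *Plcb4* was the lowest of its group in both, with 273 and 216 CPM. The libraries share depth, dissection and numbering order, whose part in this relation was not tested.

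**Figure D4:**
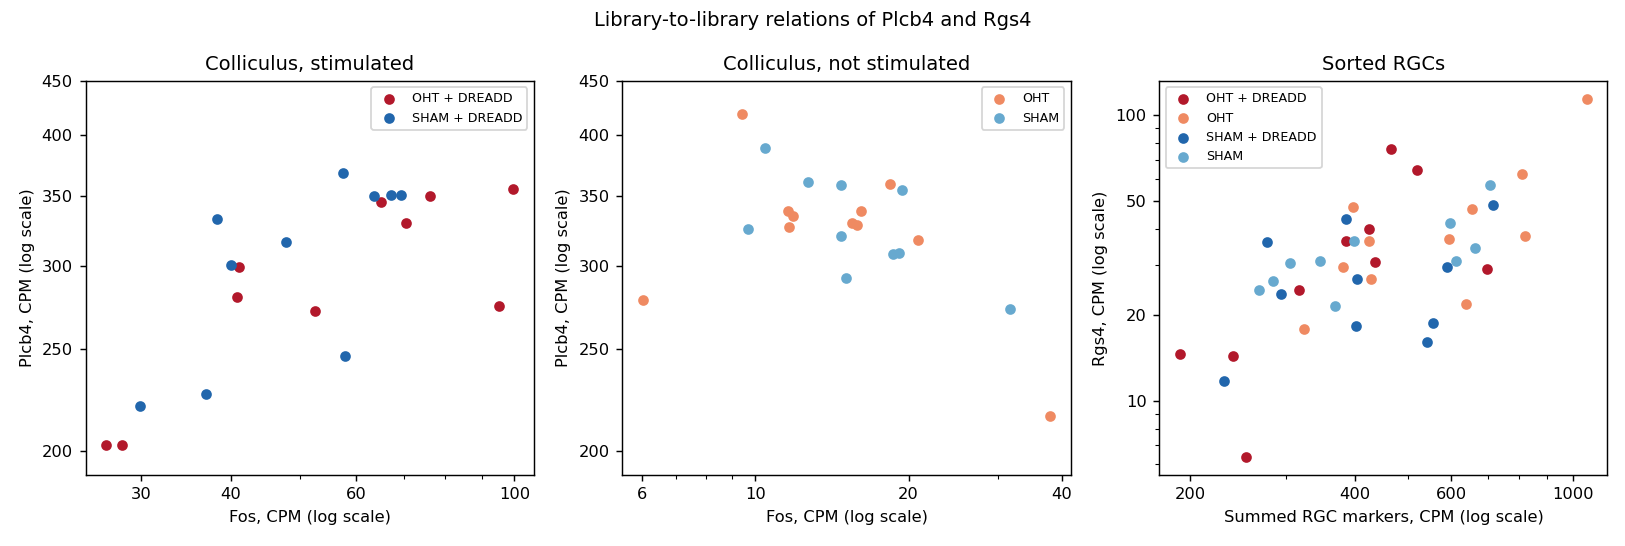
Left and middle: *Plcb4* against *Fos* in CPM, both on log scales, in the 20 stimulated and the 21 unstimulated colliculi. Right: *Rgs4* against the summed RGC markers in CPM, both on log scales, in the 41 RGC libraries. Each point is 1 library, colored by group, and the stimulated colliculi show *Plcb4* higher where *Fos* was higher (r = 0.75 with group means removed).

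In sorted RGCs, none of the 9 genes was called in any comparison. Stimulation gave 0 of 9 in “OHT + DREADD” vs. “OHT”, where 0.0874% of 17160 genes were called, 0 of 9 in “SHAM + DREADD” vs. “SHAM” (0.0115% of 17439 genes) and 0 of 9 in the averaged effect (2.61% of 19234 genes). At an unadjusted p under 0.05 these 3 comparisons had 0 members each, beside 8.47%, 5.17% and 10.5% of all genes. OHT gave 0 of 9 in “OHT” vs. “SHAM” (0.0686% of 17491 genes) and 0 of 9 in “OHT + DREADD” vs. “SHAM + DREADD” (0.041% of 17088 genes), and the interaction 0 of 9 (2.43% of 19234 genes). Of the OHT comparisons, 1 had a member at an unadjusted p under 0.05, *Itpr1* in “OHT + DREADD” vs. “SHAM + DREADD” (7.23% of all genes), while “OHT” vs. “SHAM” and the interaction had 0 (5.77% and 10.1%). DESeq2 and limma-voom also called 0 members in RGCs. The median log2 fold change of the 9 genes was -0.14 in “OHT + DREADD” vs. “OHT” and 0.27 in “SHAM + DREADD” vs. “SHAM”, beside 0.0043 and -1.1e-06 for all genes. Precision was lower than in the colliculus: the 7 genes other than *Plcb3* and *Chrm3* had standard errors of 0.17 to 0.44 and 0.22 to 0.45 in these 2 comparisons, beside 0.10 to 0.13 and 0.07 to 0.10 for the 8 collicular genes.

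**Figure D5:**
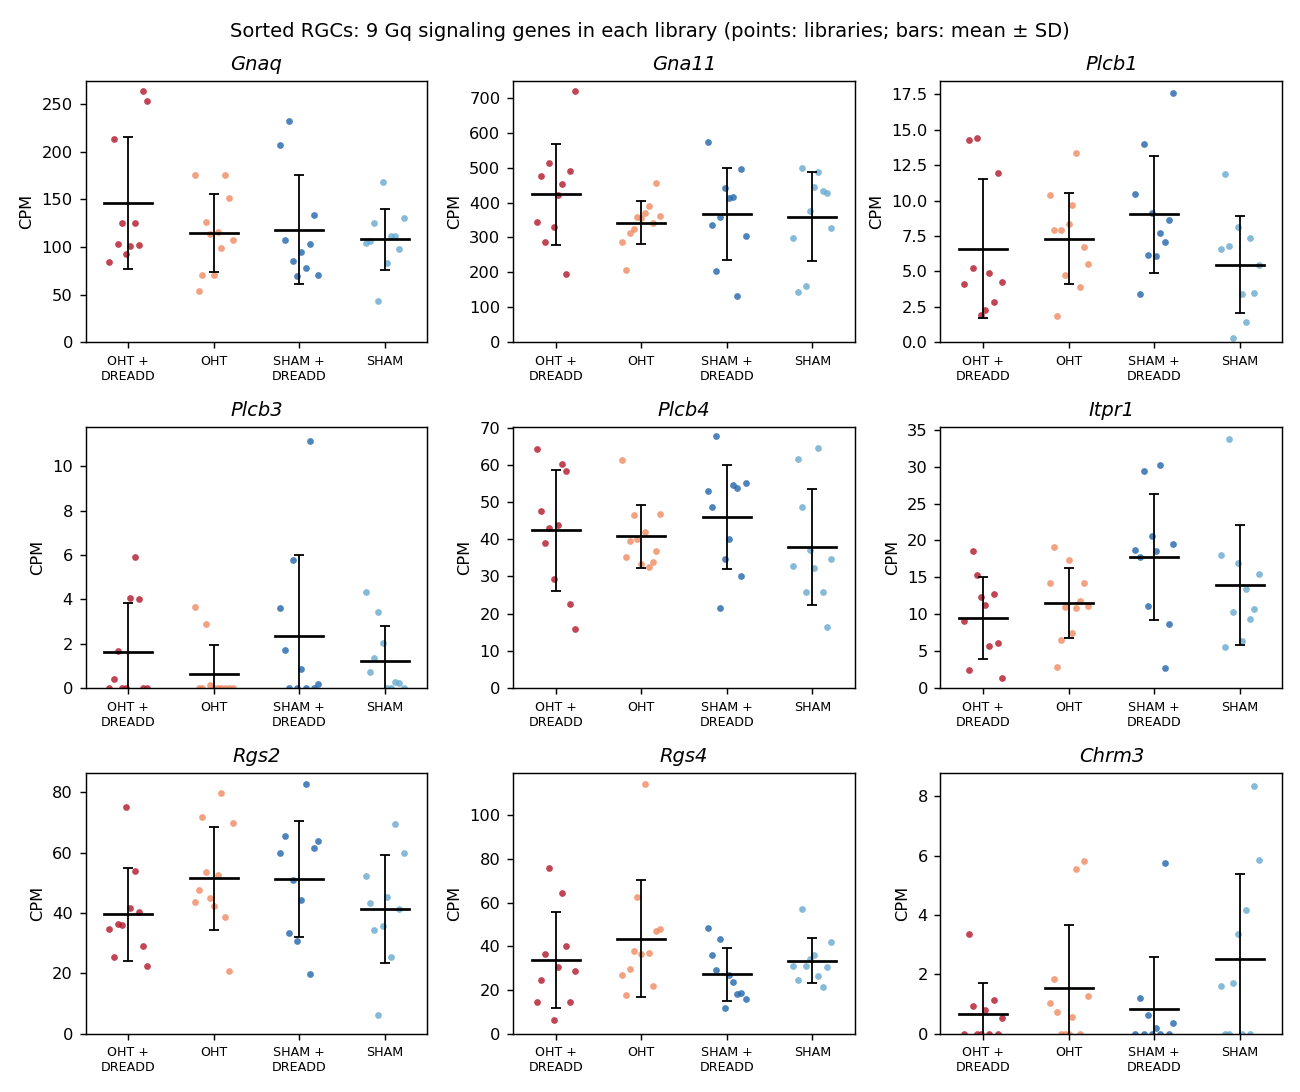
Expression of the 9 Gq signaling genes in each RGC library, in CPM, for “OHT + DREADD” (10), “OHT” (11), “SHAM + DREADD” (10) and “SHAM” (10). Points are libraries and bars are mean ± SD. *Gna11* was high in all libraries, between 134 and 719 CPM, while *Plcb3* and *Chrm3* were at 0 in some libraries of each group.

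*Gna11* was the leading member in RGC libraries. It ranged from 196 to 719 CPM (median 438) in “OHT + DREADD”, 208 to 456 CPM (median 356) in “OHT”, 134 to 573 CPM (median 386) in “SHAM + DREADD” and 143 to 498 CPM (median 402) in “SHAM”. The ranges overlapped throughout. On the log2 scale the difference was 0.31 (SE 0.17) in “OHT + DREADD” vs. “OHT” and 0.03 (SE 0.23) in “SHAM + DREADD” vs. “SHAM”, with adjusted p = 0.68 and 1.00 in edgeR. *Gnaq* averaged 146 ± 69.2 CPM in “OHT + DREADD” and 115 ± 40.96 CPM in “OHT”, and 118 ± 57.3 CPM in “SHAM + DREADD” and 108 ± 32.2 CPM in “SHAM” (SD). Its log2 fold changes were 0.36 (SE 0.23) and 0.13 (SE 0.22). In “OHT + DREADD”, replicates 2, 9 and 10 had 213, 264 and 253 CPM of *Gnaq*, and every other library had at most 126 CPM. In all of those replicates the Y-linked genes exceeded *Xist*.

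Per kilobase of exons, the scale on which these full-length libraries compare genes, *Gna11* averaged 90.9 ± 29.0 CPM per kb and exceeded *Gnaq* (19.7 ± 8.37) in all 41 libraries (SD). *Rgs2* (12.7 ± 4.85), *Rgs4* (11.2 ± 6.29) and *Plcb4* (4.65 ± 1.51) followed. *Plcb4* exceeded *Itpr1* (0.716 ± 0.399) in all 41 libraries, and *Plcb1* (0.640 ± 0.362), *Chrm3* (0.222 ± 0.339) and *Plcb3* (0.204 ± 0.337) were lowest. The other neighbors traded places, as each gene exceeded the next in 13 to 36 of 41 libraries.

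The phospholipase Cβ member of the RGC libraries with the highest level per kilobase was *Plcb4*. It had 15.8 to 64.2 CPM (median 43.4) in “OHT + DREADD”, 32.7 to 61.4 CPM (median 39.5) in “OHT”, 21.5 to 67.6 CPM (median 50.7) in “SHAM + DREADD” and 16.4 to 64.5 CPM (median 33.7) in “SHAM”. No group stood apart, and the log2 fold change with stimulation was 0.06 (SE 0.21) under OHT and 0.27 (SE 0.23) in SHAM mice. *Plcb1* averaged 6.61 ± 4.93 CPM in “OHT + DREADD” and 7.31 ± 3.23 CPM in “OHT”, and 9.03 ± 4.13 CPM in “SHAM + DREADD” and 5.47 ± 3.43 CPM in “SHAM” (SD). The log2 fold change in SHAM mice was 0.71 (SE 0.45, edgeR adjusted p = 1.00). *Plcb3* had reads in 21 of 41 libraries, with 66 reads in the library that had most.

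*Itpr1* was the member with the lowest unadjusted p in RGCs. “OHT + DREADD” RGCs had 1.34 to 18.6 CPM (median 10.2) and “SHAM + DREADD” RGCs 2.704 to 30.2 CPM (median 18.6). All 10 “OHT + DREADD” libraries lay below the median of “SHAM + DREADD”, and 6 “SHAM + DREADD” libraries lay above all of “OHT + DREADD”. Its log2 fold change was -0.90 (SE 0.40, 95% interval -1.71 to -0.08), rank 914 of 17088 genes, and did not pass the adjustment (edgeR p = 0.032, adjusted p = 0.59). In the 5 “OHT + DREADD” libraries with *Xist* above the Y-linked genes, *Itpr1* averaged 11.5 ± 3.54 CPM (SD). The other 5 averaged 7.51 ± 6.94 CPM. All 10 “SHAM + DREADD” libraries were of the first kind, with 17.7 ± 8.54 CPM. “OHT” RGCs had 2.78 to 19.0 CPM (median 11.1) and “SHAM” RGCs 5.50 to 33.8 CPM (median 12.04), a log2 fold change of -0.29 (SE 0.33).

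*Rgs2* averaged 39.6 ± 15.3 CPM in “OHT + DREADD” and 51.4 ± 16.9 CPM in “OHT” RGCs, and 51.2 ± 19.2 CPM in “SHAM + DREADD” and 41.3 ± 17.7 CPM in “SHAM” RGCs (SD). In none of the pairs were the groups apart, and the log2 fold change was -0.37 (SE 0.22) under OHT and 0.31 (SE 0.27) in SHAM mice. The interaction of -0.69 (SE 0.36, 95% interval -1.41 to 0.04) did not pass the test (edgeR p = 0.062, adjusted p = 0.55). *Rgs4* averaged 33.6 ± 22.1 CPM in “OHT + DREADD” and 43.5 ± 26.7 CPM in “OHT”, and 27.2 ± 12.1 CPM in “SHAM + DREADD” and 33.4 ± 10.2 CPM in “SHAM” (SD). Its log2 fold changes of -0.37 (SE 0.32) and -0.29 (SE 0.25) had intervals that include 0.

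*Rgs4* varied with the summed RGC markers, of which *Sncg* (174 CPM) and *Isl1* (168 CPM) had the highest means. On log2(CPM + 0.5) with group means removed, Pearson's r between *Rgs4* and the summed RGC markers was 0.61 and Spearman's rho 0.62 over the 41 libraries (permutation p = 4.0e-05 and 3.0e-05, adjusted over 18 relations 7.2e-04 and 5.4e-04), and r was 0.58 without the 2 libraries farthest from the median marker level. Of 8697 genes compared, the 3 nearest to *Rgs4* were *Sncg* (r = 0.57), which is on the list of RGC markers, *Trarg1* (r = 0.57) and *Cox7a2* (r = 0.57). *Gnaq* was lower where the summed rod markers were higher (r = -0.40, rho = -0.47, permutation, adjusted p = 0.048 and 0.022), with r = -0.65 without the 2 libraries farthest from the median rod marker level. *Gna11* also had a negative relation to the rod markers by Pearson's r (-0.57 with and without those 2 libraries, permutation, adjusted p = 0.0015), though not by rho (-0.34, adjusted p = 0.13). *Gna11* itself was nearest to *Ncs1* (r = 0.86), which encodes a neuronal calcium sensor.

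*Chrm3* was sparse in RGCs. Reads were found in 5 of 10 “OHT + DREADD”, 7 of 11 “OHT”, 5 of 10 “SHAM + DREADD” and 6 of 10 “SHAM” libraries, with 36 reads in the library that had most. The highest libraries had 3.36, 5.80, 5.75 and 8.33 CPM in these 4 groups, and every group had libraries at 0. The log2 fold changes of -1.13 (SE 1.17) and -1.57 (SE 1.15) with stimulation had wide 95% intervals that include 0, -3.49 to 1.23 under OHT and -3.90 to 0.76 in SHAM mice.

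The other genes of the pathway were taken as 10 lists of 159 genes in all, from endogenous Gq-coupled receptors to calmodulin kinases and protein kinase C. In the colliculus, 151 of them were tested for the averaged effect of stimulation, and none was called, beside 0.161% of all genes. At an unadjusted p under 0.05, 4 were higher and 8 lower, which is 7.95% of the 151 and close to the 8.16% of all genes. In “SHAM + DREADD” vs. “SHAM” colliculi none of 146 was called (0.11% of all genes), 3 were higher and 14 lower at an unadjusted p under 0.05 (11.6%, all genes 9.54%), and 43 had a positive log2 fold change, beside 51.2% of all genes. In “OHT + DREADD” vs. “OHT” colliculi none of 145 was called (0.0956% of all genes), 1 was higher and 4 lower at an unadjusted p under 0.05 (3.45%, all genes 7.39%), and 75 had a positive log2 fold change, beside 54.2% of all genes. In contrast, of 11 activity-regulated genes measured beside them, all 11 had positive log2 fold changes in the averaged effect and 7 were called (median 0.81, all genes 0.0045). *Fosb*, *Fos* and *Nr4a3*, all encoding transcription factors of the activity response, rose by 2.29, 1.76 and 1.81 on the log2 scale (SE 0.20, 0.16 and 0.22, edgeR adjusted p = 2.8e-11, 2.8e-11 and 4.3e-07).

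The list of calcium release, entry and extrusion genes lay lowest in the colliculus. Of its 22 genes, 19 had a negative log2 fold change in the averaged effect, with a median of -0.11 beside 0.0045 for all genes, and 0 were called. *Slc8a2*, a sodium-calcium exchanger of neurons, had -0.32 (SE 0.11), *Trpc5*, a cation channel that opens downstream of Gq, -0.27 (SE 0.12), and *Atp2b2*, a calcium pump of the plasma membrane, -0.14 (SE 0.07), with edgeR adjusted p = 0.42, 0.59 and 0.60. *Itpr3*, a further inositol trisphosphate receptor, had 0.52 (SE 0.21, adjusted p = 0.52). In the SHAM mice alone 19 of 22 were negative with a median of -0.16, and under OHT 12 of 21 with a median of -0.08. The lower neuronal marker sum of “SHAM + DREADD” colliculi, given with *Itpr1*, applies to the SHAM mice here too. Under OHT that sum was 3744 ± 329 CPM in “OHT + DREADD” and 3619 ± 450 CPM in “OHT” colliculi (SD). The part of neuronal RNA content in these values was not tested.

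Among the remaining lists, the medians of the averaged effect in the colliculus lay between -0.05 and 0.01 with 0 genes called. The receptors had a median of -0.05 over 24 genes tested, with *Hrh1*, a histamine receptor, at -0.34 (SE 0.13, adjusted p = 0.52) and *Grm5*, a metabotropic glutamate receptor, at -0.11 (SE 0.06, adjusted p = 0.67). The 16 other RGS genes tested had a median of -0.01, with 8 positive and 8 negative, and *Rgs8* had the lowest p at -0.20 (SE 0.08, adjusted p = 0.52). The 7 receptor kinases and arrestins had a median of -0.04, with *Grk3* at -0.19 (SE 0.08, adjusted p = 0.57). The 21 genes of the diacylglycerol branch had a median of -0.02, with *Prkcb*, a protein kinase C, at -0.08 (SE 0.05, adjusted p = 0.68). Of the 9 other phospholipase C genes, *Plcg2* had the lowest p at 0.40 (SE 0.17, adjusted p = 0.56).

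In RGCs, 2 of the 147 pathway genes tested were called in the averaged effect of stimulation, both lower, beside 2.61% of all genes. They were *Plcb2*, a phospholipase Cβ of blood cells, with a log2 fold change of -3.88 (SE 0.99, adjusted p = 0.026), and *Impa2*, an inositol monophosphatase, with -2.75 (SE 0.71, adjusted p = 0.027). Both calls rested on few reads, and the 502 genes called over all genes in this effect became 5 with the filter filterByExpr. *Plcb2* had reads in 1 “OHT + DREADD”, 0 “SHAM + DREADD”, 2 “OHT” and 1 “SHAM” libraries, of which the highest, a “SHAM” library, had 7.98 CPM. *Impa2* had reads in 0 “OHT + DREADD”, 0 “SHAM + DREADD”, 1 “OHT” and 2 “SHAM” libraries, with at most 1.91 CPM. Of the 11 activity-regulated genes, 4 were called in the averaged effect in RGCs, all higher: *Egr1* at 2.10 (SE 0.43), *Nr4a1* at 1.93 (SE 0.38), *Junb* at 1.63 (SE 0.49) and *Fos* at 1.07 (SE 0.29), with edgeR adjusted p = 0.026, 0.026, 0.068 and 0.030. In the single comparisons, 2 of 11 were called in “OHT + DREADD” vs. “OHT” RGCs (median log2 fold change 0.72) and 0 of 10 in “SHAM + DREADD” vs. “SHAM” RGCs (median 0.16), with 1 of the 10 at an unadjusted p under 0.05. The interaction was called for *Egr1* alone of the 11 (3.81, SE 0.85, edgeR adjusted p = 0.027). *Egr1* was spread unevenly over the “OHT + DREADD” RGC libraries, with 4.07 to 418 CPM and a median of 10.2 CPM beside a mean of 102 CPM, and had at most 10.8 CPM in “SHAM + DREADD”, 14.01 CPM in “OHT” and 22.5 CPM in “SHAM” RGCs. *Fos* had 15.3 to 288 CPM (median 36.5) in “OHT + DREADD” RGCs and at most 41.2, 49.3 and 50.7 CPM in these 3 groups.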

How the data were processed

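The authors deposited raw counts per gene for 41 RGC libraries (Smart-Seq2) and 41 superior colliculus libraries (QuantSeq 3′), made by alignment to mm10 with HISAT2, removal of multi-mapping reads and counting with HTSeq. The annotation release and the strand setting are not given in the sources used here, so reads of *Chrm3*, *Gnaq*, *Plcb1*, *Plcb3* and *Plcb4* cannot be told apart from those of genes on the opposite strand. The members and gene lists were chosen with earlier results of these data known. Symbols came from GENCODE M21 and matched 42548 of the 43629 identifiers. A gene entered a comparison when 2 or more of its samples had over 5 reads, and was tested with edgeR 4.0.16 (TMM factors, quasi-likelihood F test, Benjamini-Hochberg adjustment over all genes). The averaged effect and the interaction used 1 fit of the 4 groups. CPM are TMM-normalized. Within a tissue, animals were separate samples, 1 retina or colliculus each. The study took eyes and brains from the same cohort, so the 2 tissues are not independent sets of mice. DESeq2 1.42.0, limma 3.58.1, other filters and factors, sex and replicate number were tried as alternatives. Genes named from the lists are among the 4 of lowest p in the averaged effect of that tissue, and likeness is the Pearson r of log2(CPM + 0.5) without group means among genes of at least 5 CPM. The fit was also run on simulated counts. The changes set there were larger than those of most members, lay in genes with many reads and left out the uneven sex. That run therefore does not show how well changes as small as those of the members are found. Correlations used 100000 permutations, two-sided.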

Additional observations from a re-analysis of the deposited data

Results flagged for a closer look

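Of the 54 groups of 10 libraries tested for a library far from the rest by Dixon's criterion, 6 had one. Chance gives about 1 in 20 for independent groups of normally distributed values. The groups here share libraries, and *Plcb3* and *Chrm3* in RGCs had no reads in many of them, so an excess over chance is not shown. In RGCs, *Plcb3* had 11.2 CPM in “SHAM + DREADD” replicate 8, with 5.76 CPM in the next library. *Chrm3* had 5.75 CPM in that same replicate 8 (next 1.20 CPM) and 3.36 CPM in “OHT + DREADD” replicate 2 (next 1.14 CPM). *Itpr1* had 33.8 CPM in the RGCs of “SHAM” replicate 3, with 18.04 CPM in the next library. In the superior colliculus, *Gnaq* had 274 CPM in “SHAM + DREADD” replicate 8 (next 228 CPM), and *Plcb3* had 6.75 CPM in “OHT + DREADD” replicate 10 (next 4.66 CPM).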

How the results depend on the processing

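The count of called members stayed at 0 in 11 of the 12 comparisons under every alternative tried. In “SHAM + DREADD” vs. “SHAM” colliculi it was 1, *Rgs2*, and became 0 with the replicate block, with sex as covariate, at an adjusted p of at most 0.05 and in 1 fit of all 4 groups, and leaving out 1 library at a time gave 0 to 1. The *Rgs2* log2 fold change was then 0.30 with the block (adjusted p = 0.18), 0.20 with sex (adjusted p = 0.65) and 0.30 in the 4-group fit (adjusted p = 0.56), and DESeq2 gave 0.30 (adjusted p = 0.0041). Between groups of the same tissue, most same-numbered samples were not alike. At most 3 of 10 same-numbered pairs had r above 0.1, and at most 3 of 10 samples were nearest to their own number. Their median r was lowest in “SHAM + DREADD” vs. “SHAM” RGCs, -0.013 beside 0.0039 for other numbers. It was highest in “OHT + DREADD” vs. “SHAM + DREADD” colliculi, 0.072 beside -0.015 for other numbers. A shared processing order and pairing across tissues were not tested. The block changed no other call.

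Signs turned for log2 fold changes that were not called, and the cause was not tested. With limma-voom they were -0.0071 for *Plcb4* in “OHT + DREADD” vs. “OHT” RGCs, 0.0042 for *Gna11* in “OHT” vs. “SHAM” RGCs, 0.21 for *Chrm3* in “OHT + DREADD” vs. “SHAM + DREADD” RGCs, and in the averaged effect -0.089 for *Itpr1* (RGCs) and -0.0081 for *Rgs4* (colliculus). With the replicate block they were 0.31 for *Chrm3* in “OHT + DREADD” vs. “SHAM + DREADD” RGCs, -0.021 for *Itpr1* and 0.0072 for *Rgs2* in the averaged RGC effect, and in the colliculus -0.010 for *Chrm3* in “OHT + DREADD” vs. “OHT”, 0.035 for *Plcb4* in “OHT” vs. “SHAM”, 0.016 for *Gnaq* and -0.014 for *Rgs4* in the averaged effect and -0.012 for *Chrm3* in the interaction. With sex as covariate, RGC values were -0.018 for *Plcb4* in “OHT + DREADD” vs. “OHT”, -0.33 for *Gna11* and 0.19 for *Rgs4* in “SHAM + DREADD” vs. “SHAM”, -0.11, 0.27 and 0.031 for *Gnaq*, *Plcb3* and *Plcb4* in “OHT + DREADD” vs. “SHAM + DREADD”, -0.019 for *Plcb3* in the averaged effect, and 0.069 and -0.075 for *Rgs4* and *Chrm3* in the interaction. Collicular values with sex were -0.0019 for *Chrm3* in “OHT + DREADD” vs. “OHT”, -0.0096 and -0.025 for *Gna11* and *Chrm3* in “SHAM + DREADD” vs. “SHAM”, 0.026 for *Plcb4* in “OHT + DREADD” vs. “SHAM + DREADD”, 0.062, -0.0031, -0.14 and -0.033 for *Gnaq*, *Rgs2*, *Rgs4* and *Chrm3* in the averaged effect, and 0.0018 for *Plcb4* in the interaction. Without RGC “SHAM” replicates 1 to 4, *Gna11* had -0.18 in “SHAM + DREADD” vs. “SHAM”, and *Gnaq* and *Plcb3* had -0.037 and 0.52 in “OHT” vs. “SHAM”.

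Leaving out 1 library at a time, values ranged from -0.037 to 0.10 for *Chrm3* in “OHT + DREADD” vs. “OHT” colliculi, and in “SHAM + DREADD” vs. “SHAM” colliculi from -0.037 to 0.068 for *Chrm3*, -0.027 to 0.052 for *Gna11* and -0.14 to 0.0067 for *Plcb3*. In RGCs they ranged from -0.076 to 0.13 for *Gna11* and -0.040 to 0.22 for *Gnaq* in “SHAM + DREADD” vs. “SHAM” and from -0.024 to 0.15 for *Plcb4* in “OHT + DREADD” vs. “OHT”. Without collicular “SHAM” replicate 1, *Chrm3* had -0.0014 in the interaction and *Plcb4* 0.020 in “OHT” vs. “SHAM”. Over all genes, the 502 called in the averaged RGC effect became 5 with filterByExpr, 7 with DESeq2, 4 with limma-voom and 8 with the block. In “SHAM + DREADD” vs. “SHAM” colliculi the 17 called became 2 with sex as covariate, while the 15 in “OHT + DREADD” vs. “OHT” became 146 and the 26 of the averaged effect 290. The filter filterByExpr left 10 member values without a result. In RGCs, reads of *Plcb3* were found in 21 and of *Chrm3* in 23 of 41 libraries, and their standard errors exceeded those of the other 7 members in all 6 comparisons.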
